A study of Homo sapiens with 12 samples.

Results

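The genes described here drive the last stages of the cell cycle, from entry into mitosis (the G2/M transition) to the splitting of the daughter cells. The list names 40 genes by symbol, chosen by known role, and 39 of them were found among the 21207 genes measured. NUSAP1 was not analysed here. RNA came from HEYA8 cells, a human line established from an ovarian cancer and used here in a study of high-grade serous ovarian carcinoma. Cells received colforsin daropate at 1, 5 or 10 µM, or vehicle, for 48 h, with 3 libraries in each of the 4 groups. Colforsin daropate was made from the plant diterpene forskolin to dissolve in water, and like it activates adenylyl cyclase and so raises cyclic AMP. No library carries a stated genetic change, and all 12 come from the 1 cell line. The sample titles carry a number, 6, 8 or 11, that recurs once in each group and is called the label number here. What it marks is not stated in the labels, so p-values measure the spread between these libraries, which may be technical in part.

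Transcripts of G2/M genes build up late in the cell cycle and are low in resting cells and in early G1. In resting cells the DREAM complex, built around MuvB, holds their promoters silent through a short element read TTTGAA, the cell cycle homology region or CHR. In dividing cells MuvB joins B-MYB (MYBL2) and then FOXM1, and the factor NF-Y on nearby CCAAT boxes adds to their activity. The proteins then act in turn: cyclin B with CDK1 starts mitosis, kinases and kinetochore proteins attach chromosomes to the spindle, kinesins shape it, and the anaphase-promoting complex ends mitosis by destroying cyclin B and securin. In RNA from whole cultures, fewer cells in G2/M and less of these RNAs per cell cannot be told apart.

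The promoters of 7 of the genes are shown first, because they differ in the elements they hold and in how far the genes moved. KIF20A, HMMR and PLK1 are 3 of the genes with the greatest excess in vehicle library 6, described further on, and CCNB2 holds both elements in close order. CENPE, CDC25B and MYBL2 hold neither element, and the last 2 had a small excess, while that of CENPE was 2.64 on the log2 scale. PRC1 and ECT2, not shown, hold both elements and also had a small excess (0.94 and 1.25). Each line gives the 200 bases before 1 RefSeq transcription start of the gene on GRCh38.p14, read 5′ to 3′ on the gene's strand. A gene can have other starts, and these stretches overlap the outer gene bounds in GENCODE. The absence of an element therefore holds for this start only. Capitals mark CCAAT or its reverse ATTGG, and TTTGAA or its reverse TTCAAA. The stretches are chr5:138178912-138179111 (plus strand) for KIF20A, chr5:163460432-163460631 (plus) for HMMR, chr16:23678689-23678888 (plus) for PLK1 and chr15:59104946-59105145 (plus) for CCNB2. Those without either element are chr4:103198344-103198543 (minus) for CENPE, chr20:3786751-3786950 (plus) for CDC25B and chr20:43666914-43667113 (plus) for MYBL2.
KIF20A: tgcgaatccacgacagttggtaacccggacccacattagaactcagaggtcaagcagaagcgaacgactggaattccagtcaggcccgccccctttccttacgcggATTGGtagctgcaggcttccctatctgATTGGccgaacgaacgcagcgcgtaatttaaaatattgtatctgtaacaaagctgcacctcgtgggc
HMMR: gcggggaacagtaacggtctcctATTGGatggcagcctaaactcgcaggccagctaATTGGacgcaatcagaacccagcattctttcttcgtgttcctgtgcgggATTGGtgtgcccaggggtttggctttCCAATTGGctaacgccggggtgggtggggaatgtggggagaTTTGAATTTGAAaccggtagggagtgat
PLK1: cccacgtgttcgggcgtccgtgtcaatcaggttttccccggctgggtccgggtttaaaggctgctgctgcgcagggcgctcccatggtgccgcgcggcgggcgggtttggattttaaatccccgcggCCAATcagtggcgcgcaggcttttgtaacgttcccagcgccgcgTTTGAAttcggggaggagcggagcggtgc
CCNB2: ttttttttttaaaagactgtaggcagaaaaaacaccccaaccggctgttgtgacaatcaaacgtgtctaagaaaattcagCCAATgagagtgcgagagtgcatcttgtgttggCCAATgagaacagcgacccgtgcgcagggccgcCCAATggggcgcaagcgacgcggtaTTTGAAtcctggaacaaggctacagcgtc
CENPE: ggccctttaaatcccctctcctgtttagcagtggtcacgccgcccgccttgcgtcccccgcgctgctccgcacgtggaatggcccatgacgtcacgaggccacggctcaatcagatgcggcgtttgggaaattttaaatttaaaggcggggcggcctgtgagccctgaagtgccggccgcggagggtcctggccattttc
CDC25B: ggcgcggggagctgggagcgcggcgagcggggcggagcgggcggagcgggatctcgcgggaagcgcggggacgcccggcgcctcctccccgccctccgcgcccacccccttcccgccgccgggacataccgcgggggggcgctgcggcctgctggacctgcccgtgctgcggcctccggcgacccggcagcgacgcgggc
MYBL2: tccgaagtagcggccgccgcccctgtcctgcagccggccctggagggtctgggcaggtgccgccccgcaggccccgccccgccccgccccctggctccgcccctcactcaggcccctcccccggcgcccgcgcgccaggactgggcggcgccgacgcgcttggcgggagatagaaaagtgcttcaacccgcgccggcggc

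RefSeq promoters of 300 bases (250 before to 50 after the start) were matched for 33 of the 39 genes. They were not matched for AURKA, TTK, BIRC5, TPX2, UBE2C and FOXM1. On either strand, CCAAT occurred in 23 of the 33 (69.7%), against 35.7% of 27305 human promoters. TTTGAA occurred in 21 of the 33 (63.6%), against 15.4% of all promoters. Both stood together in 17 (51.5%), against 6.08% of all promoters. Neither was found in CDC25B, CDC25C, CENPE, CKAP2, KIF2C and MYBL2. The variant TTTAAA, visible in the KIF20A, PLK1, CCNB2 and CENPE stretches, occurred in 12 of the 33 (36.4%), against 12.3% of all. A match describes letters in this window and does not show that a factor binds there.

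Levels are given on the authors' variance-stabilised scale, which follows log2 for abundant genes and flattens towards a floor of 4.86. The deposit rounds them to 0.1 where they reach 10 and to 0.01 where they do not. The spacing of low values gave a depth of 31.1 to 48.4 megareads on genes, except in vehicle library 6, which had 23.9 megareads. At 1, 5 and 10 µM the library numbered 6 was also the shallowest of its group, with 34.7, 34.6 and 31.1 megareads. Treated libraries of numbers 8 and 11 had 37.0 to 48.4 megareads. Folds are ratios of normalised counts recovered from the same values. The cultures carried the epithelial keratins KRT8 (13.1 to 14.5) and KRT18 (13.6 to 14.9), the ovarian lineage factor PAX8 (12.5 to 13.6), and mesenchymal VIM (17 to 18.7). The ovarian carcinoma markers WT1 (6.89 to 7.73) and MSLN (7.29 to 7.86) were low, below the median gene of every library (8.21 to 8.29). EPCAM and KRT19 were near the floor (highest 5.72 and 5.94), and CDH1 and MUC16 were not analysed here. Leukocyte markers summed to at most 19.7 normalised counts in any library.

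Vehicle library 6 stood apart from vehicle libraries 8 and 11 in these genes, and this was known when the genes were taken up for description. All 39 were higher in vehicle library 6 than in both others, by a median of 2.27 on the log2 scale over their mean. Among all 17767 genes that entered the tests, 39.5% were higher in vehicle library 6 than in both others, and the median difference was 0.00. As a fold of counts the excess had a median of 5.46 and ran from 1.83 for MYBL2 to 16.8 for KIF20A. At 10 µM the library numbered 6 differed from the mean of 8 and 11 by a median of -0.01. Vehicle library 6 is also the shallowest library, and the part of depth in the difference was not tested. The differences are therefore given within label numbers, and the counts of calls with and without label number 6.

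The transcripts took different courses in the 3 label numbers. In label number 6 their median level ran 11.2, 11, 10.4 and 9.28 through vehicle, 1, 5 and 10 µM. In label number 8 the median ran 8.93, 9.89, 9.61 and 9.33 through the same doses. In label number 11 it ran 8.68, 9.50, 9.18 and 9.05. So the level in number 6 was lower at each higher dose, while in numbers 8 and 11 it was highest at 1 µM and then lower, without reaching the vehicle level again. The median of all genes tested lay between 9.01 and 9.08 in every library.

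**Figure D1:**
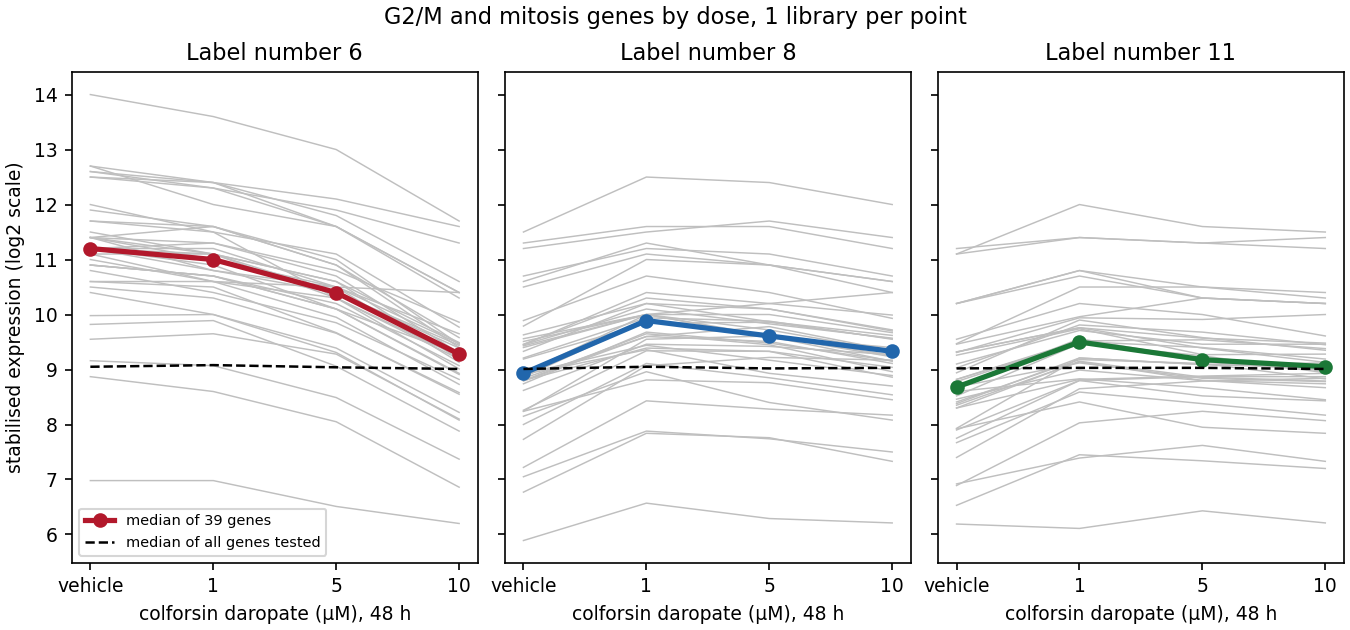
Stabilised expression (log2 scale) of the 39 G2/M and mitosis genes against dose, with 1 panel per label number and 1 library per point. Grey lines are single genes, the coloured line is their median and the dashed line the median of all genes tested. In number 6 the median is 9.28 at 10 µM, against 11.2 in vehicle, and the 3 panels end close together at 9.05 to 9.33.

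Gene by gene, number 6 and the other numbers differed in direction for most of the genes. At 10 µM against vehicle, label number 6 was lower in 39 of 39 genes, with a median difference of -1.94 and counts lower by a median of 4.26-fold. In number 8, 30 were higher and 7 lower, with a median of 0.29, and in number 11, 33 were higher and 3 lower, with a median of 0.41. At 1 µM the medians were -0.20, 0.81 and 0.68 in numbers 6, 8 and 11, with 30 genes lower and 5 higher in number 6, 39 higher in number 8 and 38 higher in number 11. At 5 µM they were -0.80, 0.64 and 0.56, with 39 lower in number 6 and 39 higher in numbers 8 and 11. The median difference of all genes was 0.00 in each of these contrasts, and each label number has 1 library per dose, so these are values with no test.

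**Figure D2:**
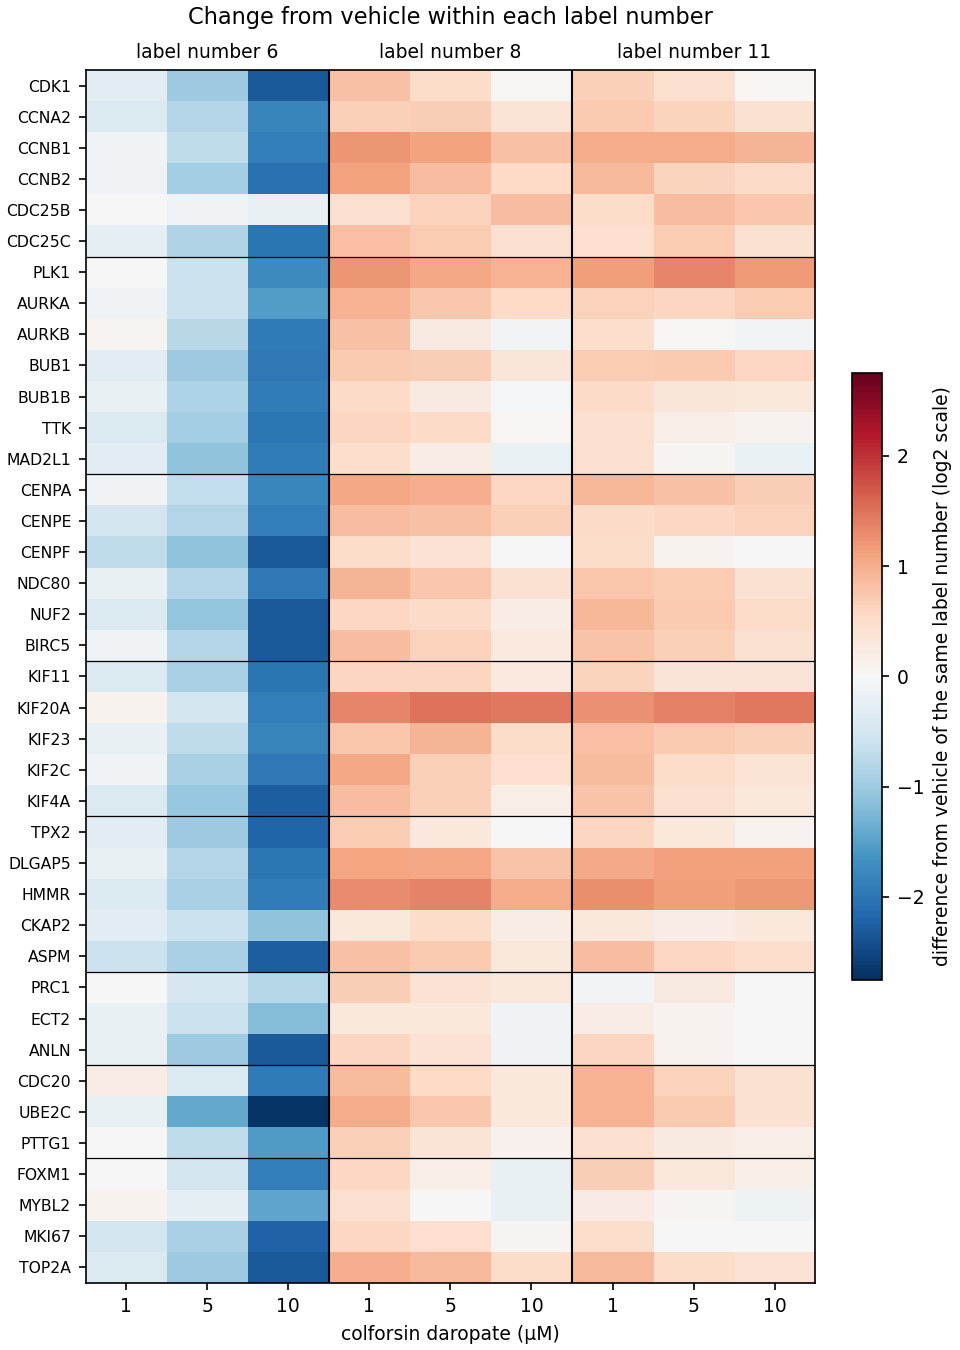
Difference from the vehicle library of the same label number (log2 scale) for each of the 39 genes at 1, 5 and 10 µM, with lines between the 8 functional groups. Blue is lower and red higher than vehicle, and all 39 genes are blue at 10 µM in number 6, while KIF20A is the deepest red in numbers 8 and 11 at 1.44.

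The cyclins, CDK1 and its activating phosphatases are the switch that starts mitosis. CDK1 (ENSG00000170312, chr10:60778331-60794852, plus strand, GRCh38), the mitotic kinase, had levels of 11.9, 11.6, 10.9 and 9.58 through vehicle, 1, 5 and 10 µM in number 6. Its levels were 9.89, 10.7, 10.4 and 9.93 in number 8 and 9.55, 10.2, 10.0 and 9.61 in number 11. At 10 µM its count was thus 5.31-fold lower than vehicle in number 6, and within 1.05-fold of vehicle in numbers 8 and 11.

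CCNB1, cyclin B1, kept a higher level than vehicle in numbers 8 and 11 at all doses. It was at 12.5, 12.4, 11.8 and 10.6 through vehicle, 1, 5 and 10 µM in number 6. It was at 9.79, 11, 10.9 and 10.6 in number 8 and at 9.47, 10.5, 10.5 and 10.4 in number 11. CCNB2, cyclin B2, followed at 10.6, 10.5, 9.67 and 8.55 in number 6. Its levels were 8.0, 9.11, 8.85 and 8.54 in number 8 and 7.90, 8.80, 8.52 and 8.43 in number 11. At 10 µM the 3 libraries of either gene lay within 0.20 of each other, although vehicle library 6 was 2.87 (CCNB1) and 2.65 (CCNB2) above the mean of the other vehicles. CCNA2, cyclin A2, which works from S phase on, was at 11.2, 10.8, 10.4 and 9.39 in number 6. It was at 9.19, 9.84, 9.86 and 9.56 in number 8 and 8.78, 9.51, 9.40 and 9.19 in number 11.

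CDC25B, a phosphatase that removes the inhibitory phosphates of CDK1, kept a nearly level course in number 6. CDC25B (ENSG00000101224, chr20:3786772-3806121, plus strand) was at 10.6, 10.6, 10.5 and 10.4 through vehicle, 1, 5 and 10 µM in number 6. It was at 9.56, 10.0, 10.2 and 10.4 in number 8 and at 9.46, 9.96, 10.3 and 10.2 in number 11. It had the smallest 10 µM difference of the 39 genes in number 6 (-0.20), and it was higher at 10 µM than at 1 µM in numbers 8 and 11. CDC25C, its relative, was instead 6.31-fold lower than vehicle at 10 µM in number 6.

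Kinases of mitosis and of the spindle checkpoint followed the common pattern with clear differences among themselves. PLK1, the polo-like kinase that matures centrosomes and spindles, was at 9.98, 10.0, 9.39 and 8.22 through vehicle, 1, 5 and 10 µM in number 6. It was at 7.22, 8.43, 8.28 and 8.17 in number 8 and at 6.89, 8.03, 8.24 and 8.07 in number 11. Its count at 10 µM was 3.92-fold lower than vehicle in number 6, but 2.41-fold higher in number 8 and 3.16-fold higher in number 11. AURKA, the Aurora kinase of centrosomes, was at 11.4, 11.3, 10.8 and 9.86 in number 6. It was at 9.45, 10.4, 10.2 and 9.99 in number 8 and 9.31, 9.94, 9.91 and 10.0 in number 11. All treated AURKA libraries of numbers 8 and 11 were above their own vehicle.

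AURKB, the Aurora kinase of centromeres and the midzone, did not keep such an excess. Its levels through vehicle, 1, 5 and 10 µM were 9.82, 9.89, 9.06 and 7.88 in number 6. They were 8.15, 8.96, 8.4 and 8.08 in number 8 and 7.92, 8.41, 7.95 and 7.84 in number 11, so that the 10 µM library was the lowest of each number. MAD2L1 (ENSG00000164109, chr4:120055608-120067074, minus strand), the checkpoint protein that holds CDC20 inactive, was at 11.2, 10.9, 10.1 and 9.28 in number 6. It was at 9.51, 10.0, 9.72 and 9.33 in number 8 and 9.32, 9.76, 9.39 and 9.13 in number 11. The 10 µM library of MAD2L1 was below vehicle in all 3 numbers. BUB1, BUB1B and TTK, further checkpoint kinases, were 4.15-, 4.26- and 4.36-fold lower than vehicle at 10 µM in number 6.

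Centromere and kinetochore genes bind chromosomes to the spindle. CENPA, the histone H3 variant of centromeres, was at 9.16, 9.07, 8.49 and 7.37 through vehicle, 1, 5 and 10 µM in number 6. It was at 6.77, 7.84, 7.76 and 7.33 in number 8 and 6.53, 7.45, 7.34 and 7.20 in number 11. Its treated libraries in numbers 8 and 11 all stood above vehicle. CENPE (ENSG00000138778, chr4:103105806-103198409, minus strand), the kinesin of kinetochores, was at 11.1, 10.6, 10.3 and 9.19 in number 6. It was at 8.62, 9.46, 9.42 and 9.27 in number 8 and 8.30, 8.82, 8.88 and 8.93 in number 11. CENPE thus moved in opposite directions with dose in number 6 and in number 11. The 10 µM levels of CENPF, a large kinetochore protein, were equal to vehicle in numbers 8 and 11 (10.7 and 10.2), while number 6 was 5.10-fold lower.

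Among the kinesin motors, KIF20A (ENSG00000112984, chr5:138178719-138187715, plus strand), needed for cytokinesis, stood out. It was at 11.2, 11.3, 10.7 and 9.30 through vehicle, 1, 5 and 10 µM in number 6. It was at 7.73, 9.07, 9.22 and 9.17 in number 8 and 7.40, 8.65, 8.79 and 8.84 in number 11. Its 10 µM count was 4.0-fold lower than vehicle in number 6, and 3.28-fold and 3.47-fold higher in numbers 8 and 11, the largest 10 µM differences of the 39 genes in these 2 numbers. KIF11, the motor that pushes spindle poles apart, was at 11.5, 11.1, 10.6 and 9.49 in number 6. It was at 9.40, 10.0, 10.0 and 9.67 in number 8 and 9.10, 9.71, 9.46 and 9.46 in number 11. KIF23, KIF2C and KIF4A had 10 µM differences from vehicle of 0.16 to 0.65 in numbers 8 and 11.

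Spindle factors included genes with strong and with weak excess over vehicle in numbers 8 and 11. TPX2, the activator of Aurora A on the spindle, was at 12.6, 12.3, 11.6 and 10.4 through vehicle, 1, 5 and 10 µM in number 6. It was at 10.6, 11.3, 10.9 and 10.6 in number 8 and 10.2, 10.8, 10.5 and 10.3 in number 11, so its 10 µM levels were within 1 rounding step of vehicle there. HMMR, a microtubule-binding hyaluronan receptor, was at 11.4, 11, 10.5 and 9.47 in number 6. It was at 8.24, 9.55, 9.61 and 9.26 in number 8 and 7.93, 9.21, 9.09 and 9.12 in number 11. HMMR counts at 10 µM were 2.25-fold and 2.64-fold higher than vehicle in numbers 8 and 11. DLGAP5, a stabiliser of kinetochore fibres, was at 10.9, 10.7, 10.1 and 8.91 in number 6. It was at 8.26, 9.34, 9.33 and 9.04 in number 8 and 7.75, 8.80, 8.87 and 8.87 in number 11, above vehicle at each dose. CKAP2, a spindle protein, had a 10 µM count only 2.17-fold lower than vehicle in number 6, and ASPM, a spindle pole protein, one 5.25-fold lower.

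None of the 3 cytokinesis genes held a lasting excess in both numbers 8 and 11. ECT2, the exchange factor that activates RhoA at the cleavage furrow, was at 12.5, 12.3, 11.9 and 11.3 through vehicle, 1, 5 and 10 µM in number 6. It was at 11.3, 11.6, 11.6 and 11.2 in number 8 and 11.2, 11.4, 11.3 and 11.2 in number 11. ANLN, the scaffold anillin of the contractile ring, was at 12.6, 12.4, 11.6 and 10.3 in number 6. It was at 10.5, 11.1, 10.9 and 10.4 in number 8 and 10.2, 10.8, 10.3 and 10.2 in number 11. Both genes were thus back at or just under vehicle at 10 µM in numbers 8 and 11. PRC1, which bundles midzone microtubules, had low values of 5.89 to 6.98 over all libraries. The annotation gives 58.4% of its exon bases also to another gene, AC068831.7 on the same strand, so reads could be lost or split and its values are uncertain. Its levels were 6.98, 6.98, 6.51 and 6.20 in number 6, 5.89, 6.57, 6.29 and 6.21 in number 8, and 6.19, 6.11, 6.43 and 6.21 in number 11. PRC1 thus stayed above vehicle at each dose in number 8. In number 11 it was below vehicle at 1 µM and only 0.02 above it at 10 µM.

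The anaphase-promoting complex destroys mitotic proteins, and 3 listed genes belong to this step. UBE2C (ENSG00000175063, chr20:45812576-45816957, plus strand), its ubiquitin-conjugating enzyme, was at 11.7, 11.5, 10.3 and 9.01 through vehicle, 1, 5 and 10 µM in number 6. It was at 8.86, 9.89, 9.60 and 9.15 in number 8 and 8.52, 9.47, 9.25 and 8.94 in number 11. At 10 µM its count in number 6 was 7.12-fold lower than vehicle, the largest such difference of the 39 genes. CDC20, its activator, was at 11.4, 11.6, 11 and 9.46 in number 6. It was at 9.33, 10.2, 9.87 and 9.62 in number 8 and 8.94, 9.90, 9.58 and 9.35 in number 11. PTTG1, securin, a substrate whose loss frees separase, was at 11.2, 11.2, 10.5 and 9.65 in number 6. It was at 9.45, 10.1, 9.83 and 9.57 in number 8 and 9.32, 9.76, 9.57 and 9.48 in number 11. In all 3 genes the highest library of numbers 8 and 11 was the one at 1 µM.

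FOXM1 and MYBL2, transcription factors that switch on many of the other genes, had small 10 µM differences in numbers 8 and 11. FOXM1 was at 11.1, 11.1, 10.6 and 9.19 through vehicle, 1, 5 and 10 µM in number 6. It was at 9.43, 10.0, 9.61 and 9.23 in number 8 and 8.82, 9.50, 9.14 and 8.98 in number 11. MYBL2 (ENSG00000101057, chr20:43667019-43716496, plus strand) was at 9.55, 9.65, 9.28 and 8.10 in number 6. It was at 8.91, 9.36, 8.93 and 8.70 in number 8 and 8.60, 8.83, 8.67 and 8.45 in number 11. MYBL2 at 10 µM was below vehicle in all 3 numbers, as MAD2L1 and AURKB were. Of the 39 genes these 3 alone had this pattern (7.69%, against 27.5% of all genes tested). MKI67, the Ki-67 protein of dividing cells, and TOP2A, the topoisomerase that untangles sister chromosomes, were 4.95-fold and 4.99-fold lower than vehicle at 10 µM in number 6.

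Tests over the 12 libraries used limma with 4 dose groups, and adjusted p-values (Benjamini-Hochberg) run over all 17767 genes. No G2/M gene passed an adjusted p of 0.05 against vehicle at any dose. At an unadjusted p under 0.05 there were 0, 0 and 1 of 39 at 1, 5 and 10 µM, the 1 being MYBL2, against 15.5%, 28.8% and 34.8% of all genes, and limma-voom on recovered reads also called 0 at each dose. Among all genes, 1.18% were called higher and 0.613% lower at 1 µM, 7.67% and 7.44% at 5 µM, and 11.2% and 11.4% at 10 µM. The median differences of the 39 genes over the 3 numbers were 0.38, 0.09 and -0.42 at 1, 5 and 10 µM. These means join opposite signs, and the standard errors reflect it: KIF20A had 0.33 ± 0.93 and UBE2C -0.66 ± 0.72 at 10 µM (difference ± SE, n = 3 each), with adjusted p of 0.838 and 0.560.

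With the label number as a replicate block, 3 of the 39 passed at 10 µM against vehicle. CDC25B was higher by 0.46 ± 0.16 (SE, adjusted p = 0.0400), in a contrast where 18.7% of all genes were called higher. MAD2L1 was lower by a difference of -0.76 ± 0.25 (adjusted p = 0.0316) and MYBL2 by -0.60 ± 0.20 (adjusted p = 0.0324), where 19.7% of all genes were called lower. MAD2L1 and MYBL2 were lower in 3 of 3 label numbers, but CDC25B was higher in 2 of 3. At 5 µM CDC25B alone was called, higher by 0.46 (adjusted p = 0.0478), against 15.3% of all genes called higher. At 1 µM limma with the block called 0 of 39, where it called 6.76% of all genes higher and 5.26% lower. There were also 0 of 39 at an unadjusted p under 0.05, against 27.6% of all genes.

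Without label number 6, which was left out with its vehicle level known, many of the genes were higher in treated cells than in vehicle. In this fit each group has 2 libraries. At 1, 5 and 10 µM, 15, 14 and 9 of the 39 rose, against 6.75%, 14% and 16.2% of all genes called higher. None of the 39 fell at any of these doses, where 5.48%, 13.8% and 17.2% of all genes were called lower. With the block added, 35, 28 and 23 of the 39 rose, against 7.99%, 14.9% and 17.2%. The 9 genes that rose at 10 µM without the block were CCNB1, CCNB2, CDC25B, PLK1, AURKA, CENPA, KIF20A, DLGAP5 and HMMR. KIF20A rose by 1.44 (adjusted p = 0.0027), HMMR by 1.11 (0.0059), PLK1 by 1.06 (0.0027) and DLGAP5 by 0.95 (0.0241), each in 2 of 2 label numbers.

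The counts at 10 µM with the block and without number 6 are given by functional group as a description. In this fit 17.2% of all genes were called higher, and its rises too are taken against the vehicle libraries known to be low. Of the cyclin and CDK1 genes 5 of 6 rose, as did 5 of 6 centromere and kinetochore genes and 4 of 5 kinesins. The rise passed in 3 of 5 spindle factors, 3 of 7 kinases and checkpoint genes, and 2 of 3 genes of mitotic exit. It passed in 1 of 4 transcription factors and markers (TOP2A), and in 0 of 3 cytokinesis genes, groups too small to set apart from that share. Whether the groups differ from each other was not tested.

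Treated libraries alone, which leave the vehicle aside, gave 1 direction in most genes. At 10 µM against 1 µM, 31 of 39 were lower in all 3 label numbers, against 24.9% of all genes tested. In 22 of 39 the 3 libraries at 10 µM all lay below the 3 at 1 µM, against 12.7% of all genes. Levels were lower at each step, from 1 to 5 and from 5 to 10 µM, in 39 genes in number 6, 31 in number 8 and 25 in number 11. All 3 numbers did so in 22 genes (56.4%), against 5.14% of all genes. The median difference between 10 and 1 µM was -1.73, -0.50 and -0.34 in numbers 6, 8 and 11.

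**Figure D3:**
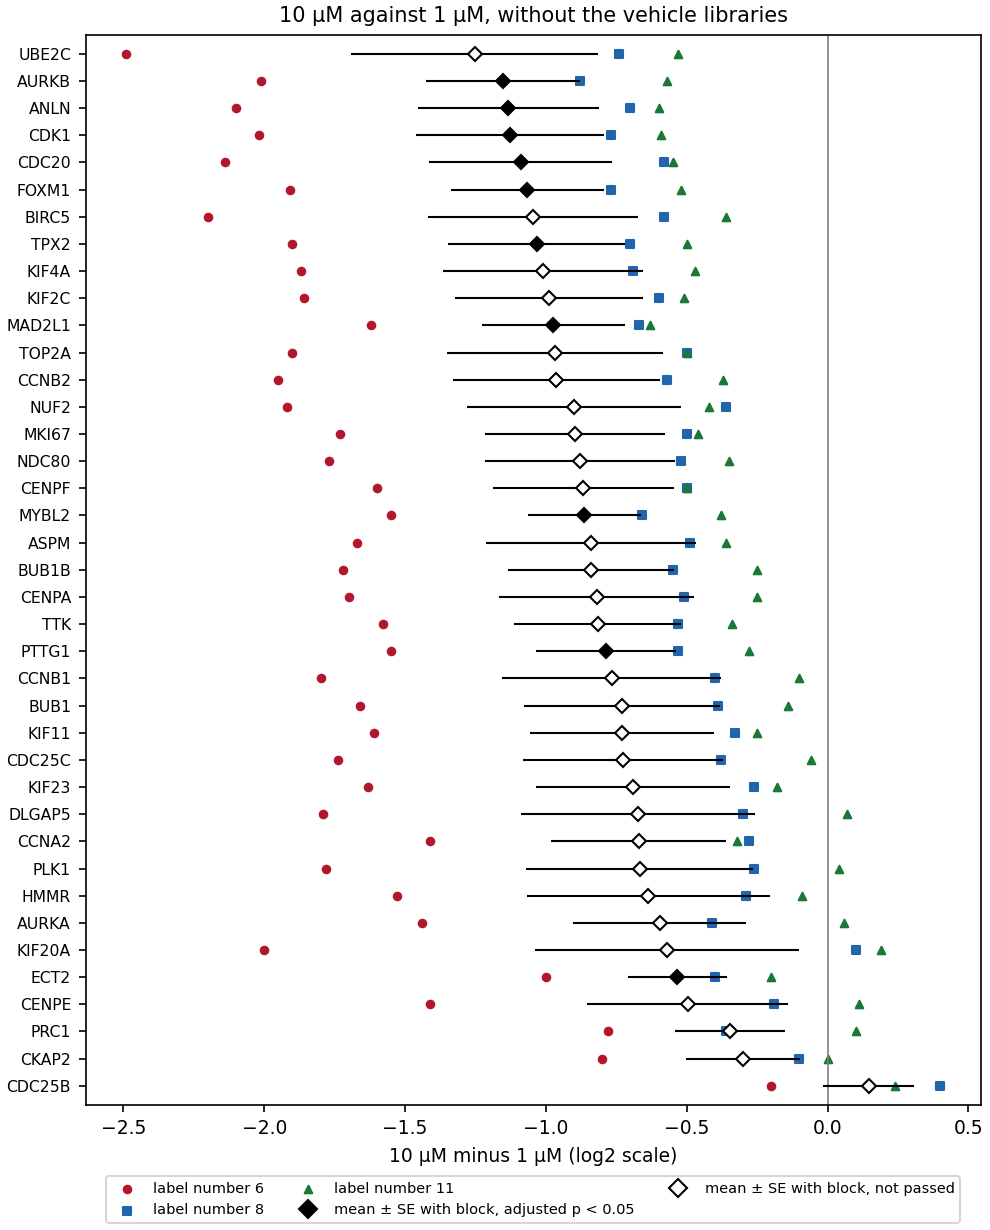
Difference between 10 µM and 1 µM (log2 scale) for each of the 39 genes. Coloured points are the 3 label numbers and diamonds the mean ± SE with the label number as a block, filled where the adjusted p is under 0.05. Points of number 6 lie farthest left in all 39 genes, and CDC25B is the gene whose mean lies above 0.

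Without the block, 0 of 39 passed at 10 against 1 µM by limma and by limma-voom, and 3 (AURKB, MAD2L1 and MYBL2) had an unadjusted p under 0.05, against 21.1% of all genes. Among all genes 2.17% were called higher and 2.54% lower. With the block 10 fell: CDK1, AURKB, MAD2L1, TPX2, ECT2, ANLN, CDC20, PTTG1, FOXM1 and MYBL2, where 11.4% of all genes fell. AURKB fell by 1.15 ± 0.27 (adjusted p = 0.0119), MYBL2 by 0.86 ± 0.20 (0.0112), FOXM1 by 1.07 ± 0.27 (0.0170) and CDK1 by 1.13 ± 0.33 (0.0327), each lower in 3 of 3 numbers. UBE2C, with the largest mean difference (-1.25 ± 0.44), did not pass (adjusted p = 0.0619). Without number 6 and with the block 20 fell, where 8.35% of all genes fell. Without number 6 and without the block CDC25B rose and MAD2L1 fell, where 5.26% of all genes rose and 6.69% fell.

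Smaller dose steps gave few calls. Between 5 and 1 µM limma called 0 of 39, against 0.191% of all genes called higher and 0.118% lower. At an unadjusted p under 0.05 there were 0 of 39, against 10.1% of all genes. Without number 6 and with the block 4 of 39 fell, against 1.95% of all genes. Between 10 and 5 µM it also called 0 of 39, and 0.00% of all genes were called in either direction. At an unadjusted p under 0.05 there were again 0 of 39, against 3.38% of all genes. limma-voom called 0 of 39 in both contrasts. The median differences were -0.30 and -0.53 in these contrasts.

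Treated libraries of different number lay closer together at higher dose. The range over the 3 libraries of a group had a median over the 39 genes that was 2.49 in vehicle and then 1.5, 1.11 and 0.27 at 1, 5 and 10 µM. For all genes tested the median range was 0.28, 0.24, 0.25 and 0.27. The vehicle range is the known excess of vehicle library 6, so a smaller range than in vehicle is no separate result. Among the treated libraries, the range of 36 of 39 genes was smaller at 5 than at 1 µM and smaller again at 10 µM (92.3%), against 13% of all genes. The range of KIF20A was 2.65, 1.91 and 0.46 at 1, 5 and 10 µM, and that of CCNB2 was 1.7, 1.15 and 0.12.

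**Figure D4:**
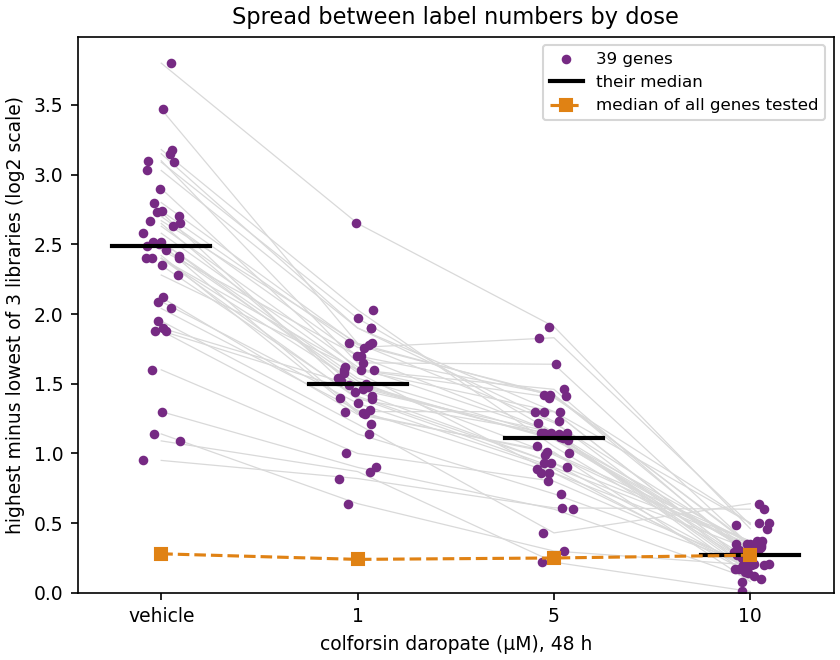
Highest minus lowest of the 3 libraries (log2 scale) at each dose for the 39 genes. Dots and thin lines are genes, bars their median, and squares the median of all genes tested. The gene median is 0.27 at 10 µM, as for all genes, against 2.49 in vehicle.

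The label number was tested as a term beside dose over all 12 libraries, and 36 of the 39 genes passed, against 30.8% of all genes. That test holds the vehicle libraries, whose difference was already known, so its count restates it. In the treated libraries alone 29 of the 39 passed, against 22.6% of all genes. Over all 12 libraries the exceptions were CDC25C (adjusted p = 0.146), PRC1 (0.0976) and MYBL2 (0.0948). Without the 1 µM library numbered 6 the count was 13. A second F test asked whether the slope on dose rank differs among the 3 numbers. CENPE alone passed of 39 (adjusted p = 0.0393), with slopes of -0.60, 0.19 and 0.20 per dose step in numbers 6, 8 and 11, where 0.191% of all genes passed. At an unadjusted p under 0.05 all 39 were below the limit, against 10.4% of all genes. The slope test too holds the vehicle libraries, so both counts restate their known difference at least in part. In the treated libraries alone 1 of the 39 passed the slope test, and the share of all genes is not given for that fit. The adjusted count over all libraries is unstable. It was 30 without the 1 µM library numbered 8, 8 without vehicle library 8 and 6 without the 1 µM library numbered 11. It was 0 without vehicle library 6, vehicle library 11, the 1 or 10 µM library numbered 6, or the 5 µM library numbered 8 or 11.

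In 24 of the 39 genes every treated library of number 6 was below its vehicle and every treated library of numbers 8 and 11 above theirs, against 1.77% of all genes. Each of these differences is taken from the vehicle libraries, whose difference was already known, so this count is no separate result. The slopes in numbers 8 and 11 differed in sign between genes. KIF20A had slopes of 0.45 in both numbers and PLK1 of 0.27 and 0.38, while AURKB had -0.08 and -0.07 and MAD2L1 -0.08 and -0.09. In number 6 the slopes of these 4 genes were -0.63, -0.59, -0.67 and -0.66.

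Promoter class was set beside the vehicle excess as a description. The excess of vehicle library 6 over the mean of 8 and 11 had a median of 2.43 (0.94 to 3.32) in the 17 genes with both CCAAT and TTTGAA. In the 6 genes with neither it had a median of 1.72 (0.80 to 2.64). The ranges overlap widely, and KIF20A, with CCAAT but no TTTGAA, had the largest excess of all at 3.64.

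Other genes of mitosis were read from further lists to see how wide the pattern was. At 10 µM against vehicle, 24 other spindle and cytokinesis genes had medians of -1.73, 0.21 and 0.20 in numbers 6, 8 and 11, nearest to the 39 genes. Other cell cycle regulators (16 genes) had -1.43, -0.18 and -0.14, and 26 other kinetochore genes -1.27, -0.21 and -0.14. Condensin (8 genes), which compacts chromosomes, had -0.88, 0.05 and 0.10, and cohesin with shugoshins (10 genes) -0.35, 0.00 and 0.00. Subunits and regulators of the anaphase-promoting complex (18 genes) had -0.24, 0.09 and -0.01, and MuvB and DREAM subunits (11 genes) had medians of 0.00 in all 3.

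CKAP2L, a spindle protein, passed the slope test (adjusted p = 0.0429), with 11.4, 11, 10.3 and 9.13 through vehicle, 1, 5 and 10 µM in number 6. It was at 9.22, 9.86, 9.85 and 9.44 in number 8 and 9.18, 9.60, 9.47 and 9.34 in number 11. SGO2, a shugoshin that guards centromeric cohesion, passed too (0.0393), with slopes of -0.39, 0.17 and 0.17 in numbers 6, 8 and 11. GAS2L3, which links actin and microtubules, also passed (0.0336), with slopes of -0.66, -0.07 and -0.09. These 3 genes share with CENPE a slope in number 6 far below those in numbers 8 and 11. They were named for a small p in this same test, so the likeness is no separate result. The test also holds the vehicle libraries.

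**Figure D5:**
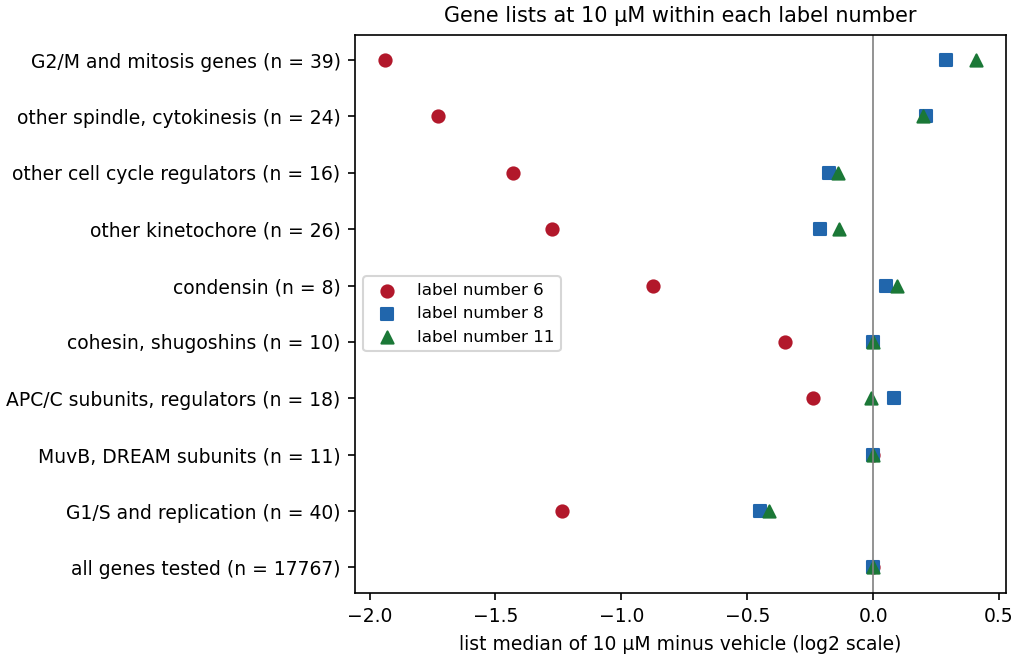
Median difference between 10 µM and vehicle (log2 scale) for the 39 G2/M and mitosis genes, 8 other cell cycle lists and all genes tested, with 1 point per label number. The 39 genes lie at -1.94, 0.29 and 0.41 in numbers 6, 8 and 11, and the G1/S list lies below 0 in all 3.

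The G1/S and DNA replication genes, which act before mitosis, had more calls against vehicle. At 10 µM, 28 of 40 fell by limma and 37 of 40 with the block, against 0 and 2 of the 39 G2/M genes and the 11.4% and 19.7% of all genes called lower. Without number 6, 23 of the 40 fell, and 30 with the block, against 17.2% and 18.2% of all genes. Their medians were -1.24, -0.45 and -0.42 in numbers 6, 8 and 11. TYMS, thymidylate synthase, was at 10.9, 10.6, 10.2 and 9.48 through vehicle, 1, 5 and 10 µM in number 6. It was at 10.2, 10.2, 9.97 and 9.67 in number 8 and 10.2, 9.94, 9.82 and 9.72 in number 11. TYMS fell at 10 µM by 0.81 ± 0.20 (SE, adjusted p = 0.0141), lower in 3 of 3 numbers. RRM2, the small subunit of ribonucleotide reductase, had 12.5, 12.3, 11.8 and 10.2 through vehicle, 1, 5 and 10 µM in number 6. It had 10.8, 11.4, 11.4 and 10.9 in number 8 and 10.5, 11.1, 10.9 and 10.6 in number 11, and it did not pass at 10 µM (adjusted p = 0.317, and 0.122 with the block). Of the other lists at 10 µM, limma called lower 7 of 26 kinetochore genes (16 with the block), 4 of 16 regulators (10) and 2 of 24 spindle and cytokinesis genes (7). Without number 6 these were 6 kinetochore genes (9), 3 regulators (5) and 2 spindle and cytokinesis genes (2).

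Of 3 endothelial markers, CDH5 and PECAM1 were below vehicle at 10 µM in number 6 and above it in numbers 8 and 11, and VWF was not. Most G2/M genes had these directions too. In numbers 8 and 11, however, CDH5 and PECAM1 were highest at 5 or 10 µM, whereas the G2/M median was highest at 1 µM. CDH5, a cadherin known from endothelial cells, was at 12.9, 13.1, 12.5 and 12 through vehicle, 1, 5 and 10 µM in number 6. It was at 10.9, 12, 12.2 and 12.1 in number 8 and 10.8, 11.9, 12 and 11.9 in number 11. PECAM1, a platelet and endothelial adhesion molecule, was at 7.38, 7.39, 6.69 and 6.64 in number 6. It was at 5.57, 5.91, 6.4 and 6.27 in number 8 and 5.69, 5.76, 6.35 and 6.4 in number 11. VWF, von Willebrand factor, was lower than vehicle at every dose in all 3 numbers, with 7.0, 6.83 and 6.9 at 10 µM and 8.05, 7.63 and 7.56 in vehicle (adjusted p = 0.0056). The summed endothelial counts were 4165, 4425 and 3868 at 10 µM and 7909, 2004 and 1870 in vehicle for numbers 6, 8 and 11. Most of this sum came from CDH5, the highest of the 3. Of 4 fibroblast markers 2 were measured, and their sum was 284 to 1311 at 10 µM and 29 to 137 in vehicle, nearly all from COL1A1. COL1A1, a collagen chain, was higher in all 3 numbers, with 10.4, 8.37 and 8.4 at 10 µM and 7.31, 5.83 and 6.24 in vehicle (adjusted p = 0.0218). The leukocyte-defining genes PTPRC and CD14 were at or near the floor. The part of these markers in the results was not tested.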

How the data were processed

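Per the labels' protocols, ribosomal RNA was removed from total RNA of 12 HEYA8 samples, and libraries were built with a TruSeq kit. The deposited table holds variance-stabilised log2 values made by the authors for 21211 entries, of which 4 name no gene and stayed out of every test. The build GRCh38 (hg38) and the tool DESeq2 are named, per the submitters' processing notes, while aligner, counter, strand setting and annotation release are not given in the sources used here. Because the authors had scaled the libraries, no change in the RNA content of a cell can be seen. Symbols were found for 21166 genes.

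Low values lie on steps of single reads. A stabilising curve fitted to 190 steps placed 98.9% of 53429 low values on a whole read within 0.0055, against at most 29.7% with depths of other libraries. This gave depths and normalised counts, which above a value of 10 carry the rounding of the deposit.

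Tests used limma 3.58.1 in R 4.3.3 with a variance trend, two-sided, on the 17767 genes that exceeded the floor by more than 1 in 3 or more libraries. All 39 G2/M genes passed this filter. Fits were checked on simulated data with independent noise. The data simulated for the dose fits held no label number differences, so that check does not cover those seen here. Same-numbered libraries deviated from their group means together (r of 0.316 to 0.777 in all 18 pairs, against -0.711 to 0.569 between numbers), so the label numbers pair the libraries. The block is printed beside the results it changes. Alternatives were other scalings, filters, array weights, limma-voom and left-out libraries.

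The genes and all lists were chosen with earlier results of these data known. Values in every library are given for the first 2 genes of each functional group, genes called in a test, and genes with extreme 10 µM differences, and in other lists for up to 3 genes with the smallest slope p. Promoters were searched with Python 3.11.15 in RefSeq sequences. Positions and exon overlaps come from GENCODE on GRCh38.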

Additional observations from a re-analysis of the deposited data

Results flagged for a closer look

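CENPE, the kinetochore kinesin, was picked out because its slopes on dose rank differed among the 3 label numbers by a test of that difference. The slopes were -0.60, 0.19 and 0.20 per dose step in numbers 6, 8 and 11, with an adjusted p of 0.0393 from the limma F test. That test holds the vehicle libraries, whose difference was already known. No G2/M gene passed on the actual dose in place of its rank, with the stricter filter, or without any 1 of 6 single libraries (vehicle 6 and 11, 1 and 10 µM of number 6, 5 µM of numbers 8 and 11).

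In all, 24 G2/M genes, CENPE among them, were picked out because all treated libraries of number 6 lay below their vehicle and all treated libraries of numbers 8 and 11 above theirs. This difference in direction was not tested gene by gene for the 24 as a set. Numbers 8 and 11 share the low vehicle level, and number 6 the high one, so the direction against vehicle and the vehicle level cannot be told apart.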

How the results depend on the processing

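The count of G2/M genes called against vehicle, 0 at each dose in the reported fit, depended on label number 6. With the replicate block it was 0, 1 and 3 at 1, 5 and 10 µM, and 10 for 10 against 1 µM. With array weights it was 23, 17, 2 and 3 in these 4 contrasts. The share of all genes called is not given for array weights or for fits without single libraries. Their counts therefore cannot be read as particular to the G2/M genes. Without label number 6 it was 15, 14, 9 and 2 without the block and 35, 28, 23 and 20 with it, and 4 for 5 against 1 µM with it. Over all settings that leave out libraries it ran from 0 to 35 at 1 µM, 0 to 28 at 5 µM, 0 to 23 at 10 µM, 0 to 20 for 10 against 1 µM, 0 to 4 for 5 against 1 µM and 0 to 0 for 10 against 5 µM. Without vehicle library 6 alone it was 3 at 5 µM, 1 at 10 µM and 2 for 10 against 1 µM. Quantile scaling, median shift, filters and limma-voom left these counts at 0.

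The count for slopes that differ among numbers, 1 as reported, was 4 after quantile scaling, 2 with no filter, 0 with the stricter filter, 0 on log2(dose + 1), 0 on dose, and 0 to 30 with single libraries left out. In treated libraries alone that count was 1. The count for the label number term, 36 as reported, was 29 in treated libraries alone (added after the data were seen) and 13 to 39 with single libraries left out. Apart from the label number term in treated libraries, no share of all genes is given for these other settings. The cause of these shifts was not tested.

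Without label number 6 and with the replicate block, genes whose mean difference was negative with all libraries were called higher. At 5 µM these were CDK1 (0.48), TPX2 (0.30) and PTTG1 (0.32). At 10 µM they were CCNA2 (0.39), CCNB1 (0.87), CCNB2 (0.54), CDC25C (0.43), AURKA (0.62), BUB1 (0.45), CENPA (0.62), CENPE (0.64), NDC80 (0.42), NUF2 (0.36), BIRC5 (0.34), KIF11 (0.32), KIF23 (0.58), KIF2C (0.42), DLGAP5 (0.95), ASPM (0.41), CDC20 (0.35), UBE2C (0.36) and TOP2A (0.45). Without the block only CCNB1, CCNB2, AURKA, CENPA and DLGAP5 of these passed. With single libraries or numbers left out, the 10 µM difference ran from -0.61 to 0.90 for CCNB1, -0.79 to 0.56 for CCNB2, -0.50 to 0.62 for AURKA, -0.67 to 0.65 for CENPA and -0.64 to 0.95 for DLGAP5. List medians within label numbers kept sign and size under quantile scaling, median shift and recovered counts. With 3 libraries a group and 1 per number and dose, differences within a number have no replicate check.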
